A study of Mus musculus with 18 samples.

Results

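RNA was sequenced from whole testis of C57BL/6 mice, 3 libraries with a Taf7l knock-in allele and 3 wild-type libraries. The labels name 12 further samples of sorted pachytene spermatocytes and round spermatids, which were not analysed here. The genes described are those of the mRNA table whose symbol is still a RIKEN clone name and begins with the number of a testis cDNA clone series. A series is the genes whose symbols share their first 4 digits, and there are 6. The first is called the 1700 series after those digits, and each of the other 5 is named by its most abundant gene. There were 213 such rows with 212 symbols, of 22298 genes in the table. The 1700 series supplied 97 rows, the series of 4930544G11Rik 66, that of 4933411K16Rik 24, that of 4931417E11Rik 11, that of 4921507P07Rik 9 and that of 4932438A13Rik 6. A further 277 rows carried a RIKEN clone symbol of another form.

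The RIKEN project cloned and sequenced full-length mouse cDNAs tissue by tissue, and a transcript with no known relative was given the name of its clone. Many such transcripts came from testis, where late germ cells transcribe genes that are quiet elsewhere. TFIID is the general transcription factor that recognises core promoters, and Taf7l encodes a germ-cell relative of its subunit Taf7. The labels call the mutant allele a knock-in, give no age and name neither the edited position nor the number of animals. Whether each library is a separate animal is not stated, so a p-value here reflects the variation among the 6 libraries, some of which may be technical.

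Depth ran from 17431309 to 21446420 counts of mRNA genes per library. Taf7l had 472, 525 and 581 counts in the knock-in libraries, against 507, 551 and 531 counts in the wild-type libraries. The groups overlapped, and the fold change, given throughout as log2 of knock-in over wild type, was -0.11 ± 0.08 (SE; edgeR's quasi-likelihood test, Benjamini-Hochberg adjusted p = 0.632). A knock-in need not alter the amount of its transcript, so the labels are not checked by it.

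The description deposited with all 213 rows read as a RIKEN cDNA entry with no protein name. Of these genes, 133, or 62.4%, had no specific Gene Ontology term, against 8.04% of all genes, where protein binding and the root terms were not counted. A molecular function term was missing for 84.0% of them, against 24.1% of all genes, and 17 were placed in a KEGG pathway, 7.98% against 41.2%. RefSeq entries (GRCm38.p6) were matched for 208 rows, 205 by the current symbol and 3 by a synonym: 1700015F17Rik, 4931406P16Rik and 4930452B06Rik. Protein coding was the RefSeq class of 181 of them, while 20 were long noncoding RNAs, 5 transcribed pseudogenes and 2 of another RNA class. The name of an uncharacterised gene thus held for most members by annotation, and the name of a coding gene did not hold for all.

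The testis-clone genes were abundant. FPKM, the authors' counts relative to transcript length and library size, is used here to compare levels between genes. The members had a median of 17.3 FPKM as a mean over the 6 libraries, against 1.85 FPKM for all genes and 0.595 FPKM for the other RIKEN symbols. A level of at least 10 FPKM was reached by 130 of them, 61.0% against 26.5% of all genes, and one of at least 100 FPKM by 35, 16.4% against 3.70%. Counts above 0 in at least 1 library were found for 210 members, 98.6% against 88.7% of all genes. Since the clones were isolated from testis, a high level there is tied to how the genes were found.

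**Figure D1:**
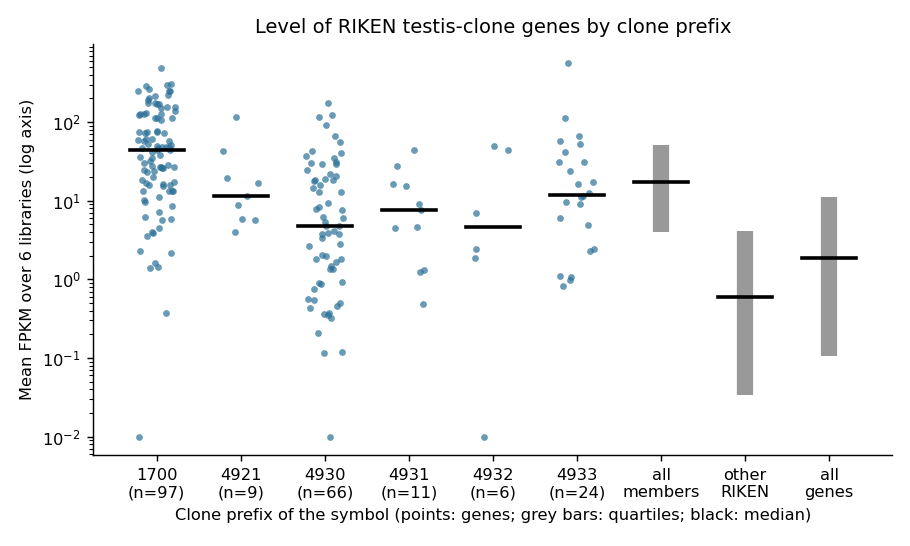
Mean FPKM over the 6 libraries on a log axis for each testis-clone gene by the prefix of its symbol, with medians as black lines; genes listed at 0 are drawn at 0.01. Grey bars are the quartiles of all members, of the other RIKEN symbols and of all genes. The 1700 series has the highest median, 44.7 FPKM, and the series of 4932438A13Rik the lowest, 4.70 FPKM.

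Levels differed by series. The median was 44.7 FPKM for the 1700 series, 12.0 FPKM for the series of 4933411K16Rik, 11.6 FPKM for that of 4921507P07Rik, 7.58 FPKM for that of 4931417E11Rik, 4.74 FPKM for that of 4930544G11Rik and 4.70 FPKM for that of 4932438A13Rik. As the plot of FPKM by prefix shows, the spread within a series was wide. The quartile ranges of all series overlapped, that of the 1700 series included. The transcripts were short. A length was implied by the ratio of counts to FPKM for 195 members, with a median of 1451 bp against 2842 bp for all genes, and the median for the 1700 series was 1191 bp.

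The most abundant member was 4933411K16Rik, with 605, 569.6 and 599.8 FPKM in the knock-in libraries and 557, 554 and 536 FPKM in the wild-type libraries. It overlaps Hoga1 on chromosome 19 and had no specific annotation. Every knock-in value was higher than every wild-type one in FPKM, while the TMM-scaled CPM overlapped. Its log2 fold change was 0.12 ± 0.06 (SE; edgeR, adjusted p = 0.486). The next was 1700009N14Rik, annotated in the deposited table with GTPase activity and nucleocytoplasmic transport, at 478, 454 and 467 FPKM in the knock-in and 515, 493 and 509 FPKM in the wild-type libraries. Its log2 fold change was -0.11 ± 0.06 (edgeR, adjusted p = 0.522), and the CPM of the groups overlapped. 1700003E16Rik followed, at 314, 308 and 315 FPKM in the knock-in and 309, 293 and 282 FPKM in the wild-type libraries, with overlapping groups and a log2 fold change of 0.09 ± 0.06.

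The 10 most abundant members held 30.8% of the summed FPKM of all members. Besides those 3 and 1700029F12Rik, described further on, they were 1700019N19Rik, 1700123L14Rik, 1700019D03Rik, 1700028J19Rik, 1700037H04Rik and 1700029H14Rik. Of these, 1700019D03Rik carries the RefSeq synonym smAKAP and is annotated with binding to a regulatory subunit of protein kinase A, a role of proteins that anchor this kinase. It averaged 252 ± 8.56 FPKM in the knock-in and 253 ± 6.03 FPKM in the wild type (SD, n = 3 each). 1700123L14Rik, at 274 ± 15.1 FPKM in the knock-in and 261 ± 2.85 FPKM in the wild type (SD, n = 3 each), is a transcribed pseudogene in RefSeq, with the synonyms Nup50 and Npap60 of a nuclear pore protein. How the authors counted reads shared with a gene copy is not given, so its level is uncertain. 1700028J19Rik, a long noncoding RNA in RefSeq, averaged 251 ± 12.7 FPKM in the knock-in and 251 ± 11.2 FPKM in the wild type (SD, n = 3 each). As a whole the members took 1.836, 1.740 and 1.802% of the counts in the knock-in libraries, against 1.767, 1.695 and 1.734% in the wild-type libraries, and these shares overlapped.

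At the low end, 23 members were under 1 FPKM. 3 had no count in any library: 1700040F15Rik on the Y chromosome, 4932411N23Rik on the X and 4930432M17Rik on chromosome 3. A count of 0 allows up to 3 counts in a library, which is between 0.140 and 0.172 CPM at these depths, by counting error alone. The symbol 4933434E20Rik stood on 2 gene identifiers, at 41.4 and 30.9 FPKM over the 6 libraries. How reads shared by the 2 entries were counted is not given, so neither level is certain.

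The X chromosome held 22 of the 208 members with a position, 10.6% against 4.22% of all genes. Testis clones on the X were less abundant, with a median of 3.10 FPKM against 23.6 FPKM for the 185 on autosomes. Meiotic cells silence the X chromosome, and a part of its genes is transcribed again in spermatids. The most abundant X-linked members were 1700011M02Rik and 1700018G05Rik, both long noncoding RNAs in RefSeq, at 30.003 and 22.975 FPKM over the 6 libraries. Among the coding ones, 4933402E13Rik was the most abundant and 4930550L24Rik came next. The latter, with the synonym mage-k1 of a MAGE family gene, had 13.0 FPKM over the 6 libraries. 1700013H16Rik, with the synonyms Slx2 and Xlr6 and annotated to spermatid development, had 9.65 FPKM.

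**Figure D2:**
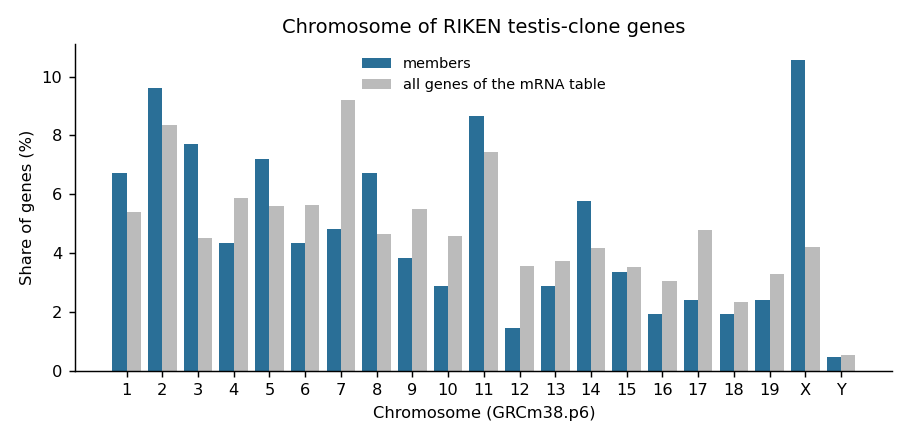
Share of genes on each chromosome (percent), for the 208 testis-clone genes with a position and for all genes of the mRNA table with one. The X chromosome holds 10.6% of the members and 4.22% of all genes.

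The comparison of the knock-in with the wild type asks which of these genes respond to the Taf7l allele. Of the 213 members, 203 had counts high enough to be tested and 10 did not, with 0 to 65 counts in all 6 libraries together. In the knock-in, 6 members rose and none fell at an adjusted p under 0.05. The members that rose made up 2.96% of those tested, where the background of all tested genes was 0.88% called higher, 0.101% called lower and 0.982% called in either direction (edgeR's quasi-likelihood test with Benjamini-Hochberg adjustment over 15787 genes). At an unadjusted p under 0.05, 45 members were higher and 10 lower in the knock-in, against a background of 7.83% and 5.09% of all tested genes. Most members differed little: the size of the log2 fold change was under 0.2 for 134 of the 203 and at least 1 for 2 of them.

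The largest rise was that of 1700020N15Rik, a short X-linked coding gene (ENSMUSG00000059690, GRCm38.p6 chrX:69945281-69945980, plus strand). Its counts were 113, 83 and 113 in the knock-in libraries, against 52, 41 and 42 in the wild-type libraries. All 3 knock-in values lay above all 3 wild-type values, at 5.28 ± 0.963 CPM against 2.46 ± 0.344 CPM (SD, n = 3 each), which gave log2 1.10 ± 0.21 (SE; edgeR, adjusted p = 0.0440). It overlaps the noncoding gene 1700111N16Rik, whose tested transcript had a log2 fold change of 0.59 ± 0.34 (edgeR, adjusted p = 0.688).

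1700092M07Rik, for which RefSeq lists the synonym Tex54 (ENSMUSG00000090840, chr19:8740718-8741225, plus strand), had 447, 504 and 621 counts in the knock-in and 337, 339 and 273 counts in the wild-type libraries. Its level was 26.6 ± 2.37 CPM in the knock-in and 17.3 ± 1.54 CPM in the wild type (SD, n = 3 each), with no overlap. The log2 fold change was 0.62 ± 0.11 (SE; edgeR, adjusted p = 0.0301). At an implied length of 491 bp it was the shortest of the 6.

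1700003F12Rik (ENSMUSG00000038523, chr2:154548904-154550050, plus strand) overlaps Necab3. Its counts were 3219, 2932 and 3875 in the knock-in libraries and 2318, 2041 and 1825 in the wild-type libraries. With 170.4 ± 16.4 CPM in the knock-in and 113 ± 12.2 CPM in the wild type (SD, n = 3 each), the groups did not overlap, and the log2 fold change was 0.60 ± 0.09 (SE; edgeR, adjusted p = 0.0206). Necab3, which encodes a calcium-binding protein, had a log2 fold change of 0.03 ± 0.16 (edgeR, adjusted p = 0.969).

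1700029F12Rik (ENSMUSG00000052075, chr13:97021864-97035254, minus strand) was the fourth most abundant member. It had 347, 321 and 367 FPKM in the knock-in and 261, 239 and 225 FPKM in the wild-type libraries, so the lowest knock-in library stood above the highest wild-type library. The log2 fold change was 0.52 ± 0.08 (SE; edgeR, adjusted p = 0.0246). It carried no specific annotation and overlaps the predicted gene Gm41028, which was not tested.

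1700001J03Rik (ENSMUSG00000095040, chr5:146182441-146190196, minus strand) is annotated with guanyl-nucleotide exchange factor activity, the loading of small GTPases with GTP. It had the tightest values of the 6, with 86.0, 85.7 and 84.0 CPM in the knock-in and 68.2, 64.0 and 69.3 CPM in the wild-type libraries. The log2 fold change was 0.34 ± 0.06 (SE; edgeR, adjusted p = 0.0346). 1700012P22Rik (ENSMUSG00000028589, chr4:144418189-144438793, minus strand), with no specific annotation, had 30.1, 29.0 and 28.3 CPM in the knock-in and 21.5, 19.2 and 22.2 CPM in the wild-type libraries. Its log2 fold change was 0.48 ± 0.09 (SE; edgeR, adjusted p = 0.0439), and the groups of both genes were apart.

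**Figure D3:**
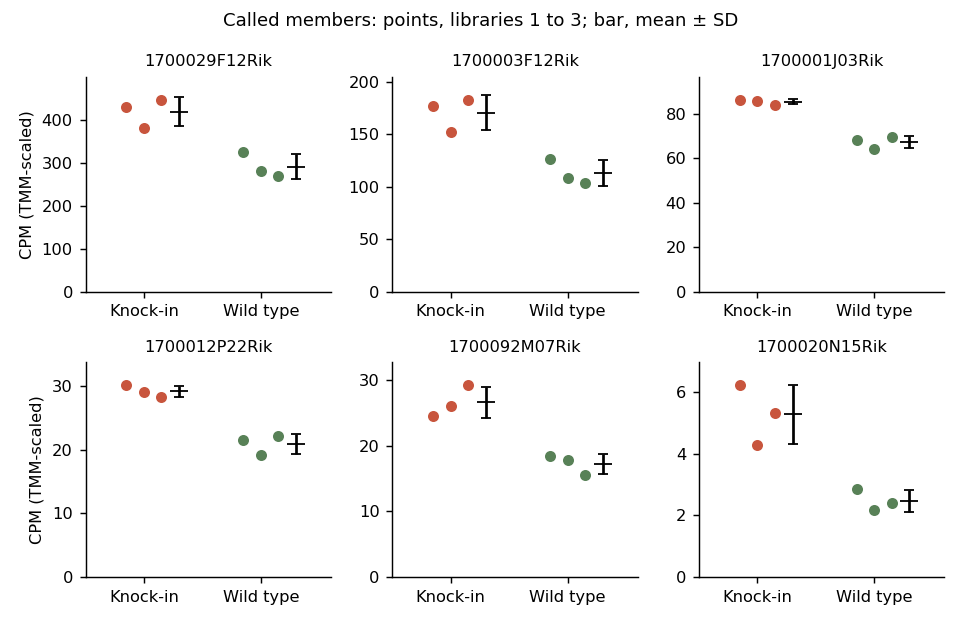
TMM-scaled CPM of the 6 members called higher, with knock-in libraries at the left and wild-type libraries at the right of each panel; points are libraries 1 to 3 of each genotype and bars the mean ± SD. In each panel all knock-in libraries lie above all wild-type libraries, from 1700029F12Rik at 419 against 291 CPM down to 1700020N15Rik at 5.28 against 2.46 CPM. The genes were chosen by the test on these same libraries, so the separation is no further support for the calls.

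The number of calls changed when single libraries were left out. Without knock-in library 1, 2 or 3 the number of members called was 1, 4 and 0, and without wild-type library 1, 2 or 3 it was 2, 0 and 0. Where none was called, 32, 33 and 40 members were higher at an unadjusted p under 0.05 without knock-in library 3, wild-type library 2 and wild-type library 3. The same omissions left 11, 32 and 20 calls among all genes. DESeq2 called 20 members, all higher, against a background of 2.34% of genes, and 5 of the 6 were among them; for 1700020N15Rik it gave no adjusted p. The authors' deposited table lists 18 members at an adjusted p under 0.05, all higher, against 1.62% of all its genes listed as higher, and 5 of the 6 were among them.

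The promoters of called members were compared with those of other genes, since a TFIID subunit relative was mutated. RefSeq windows of 300 bases (GRCm38.p6, 250 before the transcript start and 50 after it) were at hand for 170 members, 200 windows in all. The windows of members were poor in CpG, the dinucleotide that is dense in promoters used by many tissues. Their median was 4.5 CpG, against 14 CpG for the windows of genes in the mRNA table, and 31.0% of them held at least 10, against 58.2%. The 6 windows of the called members held a median of 2.5 CpG and none held 10. The windows below are those of the 3 called members with the fewest CpG, and of the CpG-rich 4932438A13Rik for contrast. Each is printed 5′ to 3′ on the gene's strand, with CpG in capitals. They lie at chr13:97034313-97034612 (1700029F12Rik, minus strand), chr2:154548654-154548953 (1700003F12Rik, plus strand), chr4:144438723-144439022 (1700012P22Rik, minus strand) and chr3:36862856-36863155 (4932438A13Rik, plus strand). RefSeq transcripts can start inside the span of their gene. The start used for 1700029F12Rik lies 892 bases inside it, that for 4932438A13Rik 43 bases and that for 1700012P22Rik 21 bases. Among the called members whose windows are not printed, the start of 1700001J03Rik lies 4892 bases inside.
1700029F12Rik: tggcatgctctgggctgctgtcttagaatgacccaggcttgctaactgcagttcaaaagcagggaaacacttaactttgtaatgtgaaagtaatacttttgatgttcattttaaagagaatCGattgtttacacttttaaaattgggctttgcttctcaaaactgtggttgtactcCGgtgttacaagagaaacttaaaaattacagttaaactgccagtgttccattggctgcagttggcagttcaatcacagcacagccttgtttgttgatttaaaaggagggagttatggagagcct
1700003F12Rik: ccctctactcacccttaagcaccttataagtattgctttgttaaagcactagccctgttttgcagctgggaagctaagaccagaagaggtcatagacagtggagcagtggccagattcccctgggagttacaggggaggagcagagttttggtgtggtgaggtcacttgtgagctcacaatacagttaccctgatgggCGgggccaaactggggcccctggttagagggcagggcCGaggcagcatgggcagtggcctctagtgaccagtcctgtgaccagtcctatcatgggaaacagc
1700012P22Rik: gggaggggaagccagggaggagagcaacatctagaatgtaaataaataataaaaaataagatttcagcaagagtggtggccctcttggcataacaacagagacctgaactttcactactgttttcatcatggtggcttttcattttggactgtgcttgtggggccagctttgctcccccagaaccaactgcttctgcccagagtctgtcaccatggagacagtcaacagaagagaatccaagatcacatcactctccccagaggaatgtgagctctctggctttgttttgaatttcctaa
4932438A13Rik: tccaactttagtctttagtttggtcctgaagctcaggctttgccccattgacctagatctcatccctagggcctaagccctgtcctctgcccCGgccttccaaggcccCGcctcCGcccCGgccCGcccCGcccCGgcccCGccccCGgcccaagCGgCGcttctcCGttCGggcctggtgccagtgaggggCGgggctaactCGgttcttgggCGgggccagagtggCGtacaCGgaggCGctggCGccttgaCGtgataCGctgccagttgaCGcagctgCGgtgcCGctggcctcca

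Among the called members whose windows are not printed, 1700001J03Rik had 3 CpG, 1700020N15Rik 4 and 1700092M07Rik 9. The uncalled 1700009N14Rik and 1700028J19Rik had 2 each, so a low number was not particular to called members. A link of CpG with the fold change was not tested. Of the printed windows, those of 1700029F12Rik and 1700003F12Rik had 2 CpG and that of 1700012P22Rik had 0, while that of 4932438A13Rik had 25. The last gene, with the synonym Kiaa1109 and annotated to endosomal transport, stood at log2 -0.09 ± 0.07 (SE; edgeR, adjusted p = 0.680), and between -0.15 without knock-in library 1 and -0.03 without knock-in library 3. Its level was 49.1 ± 4.18 FPKM in the knock-in and 51.4 ± 2.09 FPKM in the wild type (SD, n = 3 each). TATAAA, the core of the TATA box, was searched on the gene's strand with its first base 40 to 20 bases before the start. It was in 0 of the 200 windows of members, against 2.53% for the mRNA table and 1.99% for all windows. TGACGT, the core of the cAMP response element, was searched anywhere on both strands. It was in 13 windows of members, 6.50%, against 8.70% for the mRNA table and 7.51% for all windows. Neither motif was in the windows of the 6 called members. A motif that is missing says that these letters are not in the window, and nothing of the factor that binds them.

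The 1700 series held all 6 calls, 6 of 95 tested or 6.32%, against 0.88% of all tested genes called higher. Outside that series edgeR called 0 of 108 tested members, near the background of 0.982% called in either direction. An unadjusted p under 0.05 was found for 19 of the 108, against 12.9% of all tested genes. DESeq2 called 4 of them, against 2.34% of all tested genes called higher: 4921509C19Rik, 4930579F01Rik, 4930590J08Rik and 4930596D02Rik. The 1700 series also had the shortest median length, 1191 bp, and the highest median level of the series. The difference between series was not tested. The median log2 fold change was 0.13 for the 1700 series, 0.10 for the series of 4931417E11Rik, 0.08 for that of 4930544G11Rik, -0.01 for that of 4933411K16Rik, -0.06 for that of 4932438A13Rik and -0.07 for that of 4921507P07Rik. Of the genes in the 1700 series, 75 of 95 had a log2 fold change above 0, and of all 203 tested members 141. The members' median was 0.09, against 0.00 for all tested genes, of which 50.6% lay above 0.

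**Figure D4:**
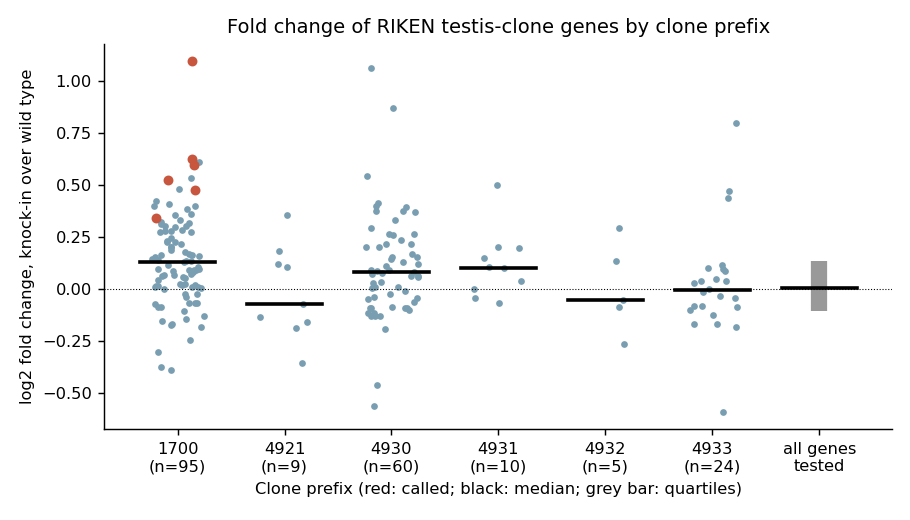
Log2 fold change of knock-in over wild type for each tested member by the prefix of its symbol; red points are called, black lines are medians and the grey bar gives the quartiles of all tested genes. The 6 called members all lie in the 1700 series, whose median is 0.13.

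In 39 members all knock-in libraries lay above all wild-type libraries, 19.2%, against 10.1% of all tested genes. This share depended on implied length. It was 19.0% of members against 28.4% of all genes under 1 kb, and 25.3% against 15.7% between 1 and 2 kb. Over 2 kb it was 13.6% against 7.91%. In 11 members all knock-in libraries lay below, 5.42%, against 8.41%. The shift did not separate the libraries as a whole. The median deviation of the members from their mean was 0.08, -0.02 and 0.07 in the knock-in libraries and 0.03, -0.11 and -0.04 in the wild-type libraries on the log2 scale, so wild-type library 1 stood above knock-in library 2. The spread within a genotype was like that of other genes, with a median coefficient of variation of 9.39% in the knock-in and 8.87% in the wild type for members, and of 9.52% and 8.98% for all tested genes.

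Transcript length moved with the fold change. Among all genes under 1 kb the median log2 fold change was 0.14 and 53 of 785, or 6.75%, were called higher. Among members of that length the median was 0.21 and 3 of 42 were called, 7.14%, near that background. Between 1 and 2 kb the median was 0.04 for all genes, with 44 of 3175, or 1.39%, called higher. For members of that length it was 0.08, with 3 of 87, or 3.45%, called. Over 2 kb it was -0.02 for all genes, with 39 of 9438 called higher, and 0.07 for members. edgeR called 0 of these 66 long members, near that background of 0.413%. DESeq2 called 4 of them, against 2.34% of tested genes of any length called higher by DESeq2. An unadjusted p under 0.05 was found for 12 of them, 18.2% against 12.4% of all genes over 2 kb. With the trend of counts on length removed from each library, 2 members were called, 1700003F12Rik (log2 0.47, adjusted p = 0.0422) and 1700029F12Rik (log2 0.45, adjusted p = 0.0422), against 0.424% of all genes called higher. The members' median was then 0.02 with 109 of 203 above 0. The other 4 had log2 fold changes of 0.24 to 0.92 and adjusted p from 0.0870 to 0.145 (edgeR).

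**Figure D5:**
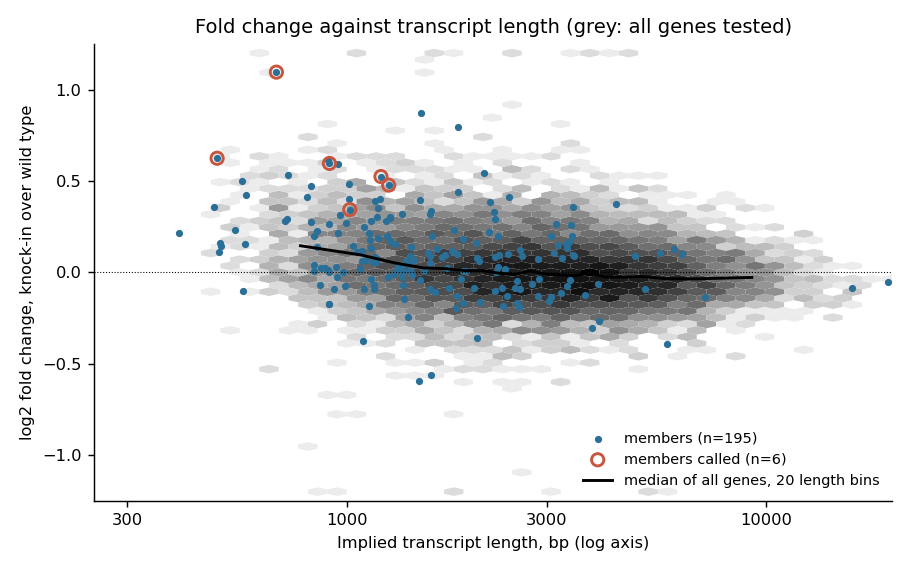
Log2 fold change of knock-in over wild type against implied transcript length on a log axis; grey shading gives the density of all tested genes with a length, blue points are members, red rings are called members and the black line is the median of all genes in 20 length bins. Fold changes beyond 1.2 in size are drawn at 1.2 for the grey genes. The black line lies above 0 for the shortest genes, and the called members all lie above it.

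Markers of testis cell types were set beside the members. In bulk tissue, fewer cells of a type and less RNA per cell cannot be told apart. The 8 markers of round spermatids summed to 1833 to 2111 CPM in the knock-in and 1631 to 1819 CPM in the wild type, with 6 of 8 log2 fold changes above 0 and 1 gene, Spaca4, called higher (log2 0.39 ± 0.06, SE; edgeR, adjusted p = 0.0260). The 6 markers of peritubular myoid cells summed to 230 to 263 CPM in the knock-in and 194 to 222 CPM in the wild type, and all 6 had a log2 fold change above 0, with none called. The ranges overlapped for the other 8 lists, which included elongating spermatids, pachytene spermatocytes and Sertoli cells. Among all single genes tested, all knock-in libraries lay above all wild-type libraries in 10.1% and below in 8.41%. The median log2 fold change was 0.045 for the round spermatid list and 0.31 for the peritubular myoid list. Of the elongating spermatid markers 5 were above and 3 below 0, and 2 were called higher. These were Prm2 (log2 0.53 ± 0.09, SE; edgeR, adjusted p = 0.0289) and Smcp (log2 0.40 ± 0.07, SE; edgeR, adjusted p = 0.0307). The 6 epididymis markers summed to 5.74 to 18.4 CPM in the knock-in and 8.07 to 23.1 CPM in the wild type. Of them, Lcn5 and Spag11a were at 0 in every library, while others were detected. The part of cell makeup in the members' rise was not tested.

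By annotated function, members did not move as one. The 7 members annotated as guanyl-nucleotide exchange factors all had an edgeR log2 fold change above 0, from 0.00 to 0.87 with a median of 0.10. The lowest, 1700123K08Rik, was at -0.00 under RLE scaling. In the authors' deposited log2 ratios 1700123K08Rik was at -0.0023 and 4930474N05Rik at -0.026. 1700001J03Rik was called. Another of the 7, 4930449I24Rik, had 73, 51 and 82 counts in the knock-in and 30, 23 and 51 counts in the wild-type libraries. The groups met at 51 counts, and its log2 fold change was 0.87 ± 0.32 (SE; edgeR, adjusted p = 0.294). 4930596D02Rik stood at log2 0.40 ± 0.10 (SE; edgeR, adjusted p = 0.122). The remaining exchange factor genes had values from 0.00 to 0.10.

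Of the 4 members annotated with GTPase activity or its activation, 3 were below 0. 4930544G11Rik, annotated to actin organisation, had 322, 271 and 304 CPM in the knock-in and 349.7, 336 and 340.5 CPM in the wild-type libraries. All knock-in values were lower, and the log2 fold change was -0.19 ± 0.07 (SE; edgeR, adjusted p = 0.270), which did not pass the test. Of the 4 members annotated to nuclear import or RNA export, 1700017N19Rik, an mRNA-binding export gene, had 0.38 ± 0.11 (edgeR, adjusted p = 0.146), and 1700015F17Rik, which RefSeq now names Pttg1ip2, had -0.17 ± 0.07 (edgeR, adjusted p = 0.363). Of the 3 proteases, 1700074P13Rik, a serine endopeptidase with the synonym Tryx5, averaged 105 ± 11.6 FPKM in the knock-in and 106 ± 4.07 FPKM in the wild type (SD, n = 3 each).

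The 3 tested members annotated to meiosis, synapsis or spermatogenesis were 4932438A13Rik, 1700013H16Rik and 4930447C04Rik, with log2 fold changes of -0.09, 0.05 and -0.13. 4930447C04Rik carries the synonym Six6os1 of a synaptonemal complex protein and is annotated to synapsis. Members with a membrane term were centred at -0.03, and edgeR called 0 of 30 tested, with 9 at an unadjusted p under 0.05 and 1 called by DESeq2. The 126 tested members with no specific annotation had a median of 0.11 and 5 calls, and the 77 with at least 1 term a median of 0.01 and 1 call. Those classed as long noncoding RNA in RefSeq had a median of 0.09, with 0 of 19 called by edgeR, 0 by DESeq2 and 3 at an unadjusted p under 0.05. Over all tested genes edgeR called 0.982% in either direction and 0.88% higher. An unadjusted p under 0.05 was found for 12.9% of them, and DESeq2 called 2.34% higher. At these shares, 0 calls in a group of 30 or 19 is near the background. Differences between annotation groups were not tested.

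The largest negative fold changes did not pass the test. 4933407L21Rik, a long noncoding RNA, had 21, 15 and 22 counts in the knock-in and 36, 26 and 20 counts in the wild-type libraries, which overlapped (log2 -0.59 ± 0.32; edgeR, adjusted p = 0.495). 4930568D16Rik, annotated as a galactosyltransferase, had 70, 70 and 116 counts in the knock-in and 134, 85 and 130 counts in the wild-type libraries, which also overlapped (log2 -0.56 ± 0.24; edgeR, adjusted p = 0.356). 1700028K03Rik, with the synonym SCRE, had 208, 181 and 230 counts in the knock-in and 228, 236 and 284 counts in the wild-type libraries. Its CPM did not overlap between the groups (log2 -0.38 ± 0.14; edgeR, adjusted p = 0.304). 1700025G04Rik and 4930455H04Rik had log2 fold changes of -0.39 ± 0.18 and -0.46 ± 0.36.

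Among the members that were higher and did not pass, 4933436I01Rik on the X had 54, 37 and 62 counts in the knock-in and 33, 27 and 22 counts in the wild-type libraries. All knock-in values were above, and the log2 fold change was 0.80 ± 0.27 (SE; edgeR, adjusted p = 0.244). 4930447F04Rik had 13, 9 and 14 counts in the knock-in and 3, 12 and 1 in the wild-type libraries, which overlapped (log2 1.06 ± 0.64; edgeR, adjusted p = 0.543). 1700029H14Rik, among the 10 most abundant, had 252, 225 and 255 FPKM in the knock-in and 197, 199.5 and 185 FPKM in the wild-type libraries, with no overlap. Its log2 fold change was 0.32 ± 0.07 (SE; edgeR, adjusted p = 0.0811).

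The noncoding table held 90 transcripts of 52 member symbols, and 47 were tested. edgeR called 0 of them, against 0.0968% of all tested noncoding transcripts, with 9 at an unadjusted p under 0.05 against a background of 8.97%. DESeq2 called 2 of them, against 1.18% of all tested, a transcript of 1700029F12Rik and one of 1700001O22Rik. The 1700029F12Rik transcript, ENSMUST00000221277, had 4390, 4129 and 5573 counts in the knock-in and 3380, 3137 and 2823 counts in the wild-type libraries. All knock-in counts were higher, and the log2 fold change was 0.50 ± 0.08 (SE; edgeR, adjusted p = 0.0843). Whether its reads were also counted for the coding gene, whose log2 fold change was 0.52, is not given. Summed over the knock-in libraries, this transcript had 14092 counts and the gene 24649. For 1700056E22Rik the noncoding transcript ENSMUST00000193919 and the gene had the same sum, 2764 counts. Counting of the same reads in both places was not tested.

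Circular RNAs are closed loops formed by back-splicing. The circle table gave 21 members as source genes of 38 circles, of which 19 were tested. By the deposited type, 26 of the 38 consisted of annotated exons, 6 of exon and intron, 3 of 1 exon and 1 of intron. The other 2, both listed under 4931408C20Rik, were typed antisense and were not tested. edgeR called 0, as for all 3887 circles tested, a background of 0.0%, and DESeq2 called 0. Of the 19, 2 had an unadjusted p under 0.05, against 4.91% of all circles tested. The most abundant was a circle of 4932414N04Rik, with 19, 25 and 34 counts in the knock-in and 13, 22 and 14 counts in the wild-type libraries, which overlapped (log2 0.48 ± 0.32; edgeR, adjusted p = 0.979).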

How the data were processed

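Counts per gene, noncoding transcript and circular RNA are used as the authors deposited them, from 6 whole-testis libraries made with a stranded total RNA kit. Per the file headers, the tables also hold FPKM for the linear RNAs and RPM for the circles, made by the authors. The authors' mean signal, log2 ratio, p-value and adjusted p-value per feature are deposited as well. They were used here for the mRNA calls and for the log2 ratios of 1700123K08Rik and 4930474N05Rik. The submitters' processing notes name mm10 as the build. No source used here gives the aligner, the annotation, the use of strand or the handling of shared reads. Values of overlapping genes and near-identical copies are thus uncertain, and 86 of the 208 members with a RefSeq position overlap another gene.

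Members were the rows of the mRNA table that fit the symbol rule. Members and lists were chosen with earlier results of these data known. Counts were scaled by TMM, filtered with filterByExpr (minimum count 10, minimum total 15; circles needed counts above 0 in at least 3 libraries) and tested with edgeR 4.0.16, limma 3.58.1 and R 4.3.3. The test was quasi-likelihood, two-sided, over the whole table, with Benjamini-Hochberg adjustment and calls at an adjusted p under 0.05. The standard error was derived from the F statistic. CPM were computed with TMM library sizes. Implied length is the median ratio of counts to FPKM over libraries with at least 1 FPKM. Fitting code was tested on simulated counts. The genes named were those called, the 5 largest positive and 5 largest negative fold changes, the 10 most abundant and 5 further ones with a named function. The most abundant gene of each series was named too. The least abundant was named for all series but those of 4921507P07Rik and 4931417E11Rik. Genes shown for a promoter or an annotated group, and those that other tools called, were added after their values were seen. Replicates varied by 11.1% (genes), 26.4% (noncoding transcripts) and 43.4% (circles), as the common biological coefficient of variation. Depth was 1384224 to 1647421 counts for noncoding transcripts and 14381 to 20127 for circles. Alternatives were RLE scaling, DESeq2 1.42.0, no filter, a minimum count of 30, a replicate block, removal of the length trend (lowess, span 0.4) and each library left out. Libraries of a genotype differed by more than counting noise, with a chi-square per degree of freedom from 5.61 to 10.9.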

Additional observations from a re-analysis of the deposited data

How the results depend on the processing

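The 6 members called and the absence of lower calls were the same under RLE scaling, without a filter and at a minimum count of 30. DESeq2 called 20 members and 456 genes, and removing the length trend left 2 members and 85 genes. With one library left out, 0 to 4 members and 11 to 125 genes were called. No noncoding transcript of a member was called by edgeR with the filter, but 2 were called by DESeq2 and 2 by edgeR without a filter. In both cases these were those of 1700029F12Rik and 1700001O22Rik. No circle was called under RLE scaling, with DESeq2, without a filter, with the replicate block or with one library left out; the minimum count of 30 and the length trend were not run for circles. Same-numbered libraries of the genotypes correlated at 0.14, 0.08 and 0.03 in their deviations from the group means, so the numbers were not taken to pair them, although each knock-in library correlated best with its own number. The replicate block gave 6 calls among members, 4 of them shared, with 1700013G24Rik and 1700029H14Rik in place of 1700012P22Rik and 1700092M07Rik, and 178 among all genes. Signs turned for some named members that were not called. With the length trend removed, log2 fold changes were -0.11 for 1700019D03Rik, -0.035 for 1700028J19Rik, -0.0014 for 1700013F07Rik (0.14 with the trend kept) and -0.052 for 1700074P13Rik. For 1700074P13Rik they were -0.0046 under RLE scaling, -0.0046 with DESeq2 and -0.0054 with the replicate block. With one library left out, values ran from -0.058 to 0.020 for 1700019N19Rik, -0.030 to 0.063 for 1700019D03Rik, -0.053 to 0.063 for 1700028J19Rik, -0.079 to 0.10 for 1700074P13Rik and -0.11 to 0.015 for 4931417E11Rik. The causes were not tested. Depth limits the 23 members under 1 FPKM most.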
